A study of Mus musculus with 9 samples.

Results

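The genes described here are 38 members of the programme driven by the transcription factor ATF4, and they cover its regulators, its stress effectors, the enzymes that make amino acids, the amino acid transporters and the cytosolic tRNA synthetases. They were chosen by name and matched by Ensembl identifier to the count table, which holds 48526 genes. All 38 were found, and all 38 passed the expression filter that left 18858 genes to be tested. The cells were NSCs isolated from the subependymal zone (SEZ) of adult mice, C57BL/6 by the labels and wild-type C57BL/6J, 2 to 4 months old, by the study's methods, and grown as neurospheres with EGF and FGF. Their differentiation was induced on an adhesive substrate in a medium with FGF and no EGF. For cells fixed early after induction the study's methods describe a period of plating in the full growth medium beforehand, and they do not say whether the cells of these libraries were plated in this way. RNA was collected at 0 h, which is the undifferentiated culture, and at 1 h and 6 h, as 9 libraries, 3 replicates at each time point. The labels name no allele or drug in any group.

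ATF4 is the main effector of the integrated stress response. Kinases that sense lack of amino acids, unfolded proteins in the endoplasmic reticulum (ER), viral RNA or lack of haem phosphorylate the translation factor eIF2alpha, general protein synthesis slows down, and the Atf4 mRNA is translated better because of short reading frames that precede its coding sequence. The ATF4 protein then pairs with C/EBP proteins and binds composite sites in genes for amino acid synthesis and uptake, tRNA charging and feedback on the response. Since ATF4 is controlled to a large extent at translation, mRNA counts give the level of its transcript and those of its targets, and not the amount of the protein.

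The composite site, the C/EBP-ATF response element, is shown first, since it is the sequence through which members of the list are known to be bound. Its core TGATGNAAN was searched on both strands in RefSeq windows of 300 bases (250 before and 50 after a gene's start, GRCm38.p6). The windows matched 32 members, and 6 (Slc7a5, Slc1a5, Cars, Lars, Nars and Wars) had none in the table. The core was found in 11 of these 32 members (34.4%), against 1215 of the 27025 genes of the table (4.5%). Within the 250 bases before the start alone the shares were 25.0% and 3.89%. It was found in 5 of 9 tRNA synthetases and Xpot with a window (55.6%), 2 of 7 regulators, 1 of 4 stress effectors, 2 of 8 synthesis genes and 1 of 4 transporters. The matches of 6 members follow, 5′ to 3′ on the strand that carries the core, with the core in capitals and 10 bases on each side. They include the members with the largest rise (Chac1) and the largest fall (Slc7a11) at 6 h, and members with the core whose mRNA did not pass the test.
Chac1: ctggcaggagTGATGCAACggcagggaag
Slc7a11, first match: ctcatgtggcTGATGCAAAcctggagaat
Slc7a11, second match: ggctgcatgaTGATGCAAAttctccaggt
Asns: cccagccacaTGATGAAACttcccgcacg
Iars: cgtctggaggTGATGCAATactgacagtg
Gars: gcccggtgcaTGATGAAATagcgcagcca
Tars: gctaaccagcTGATGCAACgggactcctg
The Chac1 stretch lies at chr2:119351038-119351066 (minus strand), 194 bases before the start, and that of Asns at chr6:7693214-7693242 (minus strand), 23 bases before it. The pair of Slc7a11 lies at chr3:50443661-50443689 (minus strand) and chr3:50443643-50443671 (plus strand), 66 and 48 bases before the start, and the printed flanks overlap. Gars holds its match at chr6:55037960-55037988 (minus strand) and Tars at chr15:11399656-11399684 (plus strand), 31 and 16 bases before their starts. Iars holds it 7 bases after the start, at chr13:49682126-49682154 (minus strand). The other members with the core are Nupr1, Trib3, Pycr1, Aars (2 matches) and Yars. These are matches of letters, and binding of ATF4 was not measured in these libraries.

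The libraries held between 65871454 and 105592597 counts, and the share taken by the 38 members together was 0.419% to 0.493%. Expression is given as CPM, counts divided by the scaled library size, and levels of different genes are compared only as RPKM, which also divides by exon length. The NSC markers were abundant, with a summed level between 7610 and 9220 CPM at 0 h over 9 markers, among them Nes, Vim and Fabp7. Of the markers of other cell types, all 6 for microglia stayed under 1 CPM in every library, with Itgam at 0 throughout, and the 6 endothelial and mural markers summed to between 54.1 and 99.2 CPM at 0 h and between 29.0 and 47.9 CPM at 6 h, most of it Acta2. With the replicate block described below, 17.4% of all tested genes were higher and 17.5% lower at 6 h than at 0 h. In that fit 3 of the 4 endothelial and mural markers tested were lower and 0 higher. Of the 9 NSC markers, 5 were higher and 2 lower. Of the 8 oligodendrocyte lineage markers, 5 were higher and none lower. Their summed level lay between 1700 and 2290 CPM at 0 h and between 2170 and 2520 CPM at 6 h, and Cspg4 went from 65.9 to 174 CPM. Astrocyte markers summed to between 738 and 901 CPM at 0 h and between 849 and 1060 CPM at 6 h (2 of 6 higher and 1 lower), neuronal ones to between 938 and 1480 CPM and between 895 and 1530 CPM (3 of 7 higher and none lower), and the 4 ependymal ones to between 46.7 and 88.0 CPM and between 39.0 and 60.5 CPM (2 lower). Most of the neuronal sum at 0 h was Map2 (1130 CPM), with Dcx at 1.08 and Tubb3 at 3.76 CPM. Aldoc (572 CPM) made up most of the astrocyte sum, with Gfap at 1.31 CPM. Most of the oligodendrocyte lineage sum was Olig1 (1230 CPM) and Olig2 (633 CPM), with Mbp at 0.528 CPM, and most of the ependymal sum was Foxj1 (61.3 CPM). The part of the marker shifts between 0 h and 6 h in the changes of the members was not tested, and in such bulk libraries a change in the make-up of the culture and a change in RNA per cell cannot be told apart.

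Before induction, the members spanned from 0.197 to 128 RPKM. The most abundant per exon length were the serine synthesis genes Psat1 (128 ± 11.4 RPKM, SD, n = 3) and Phgdh (104 ± 9.52 RPKM), which encode the phosphoserine aminotransferase and the phosphoglycerate dehydrogenase, followed by Atf4 itself (70.4 ± 5.46 RPKM). The ranges of 1 SD around the means of these 3 genes did not overlap. At the other end, 4 members had less than 1 CPM at 0 h, namely the regulators Cebpb, Nupr1 and Trib3 and the glutathione-degrading enzyme Chac1, and the counts of Cebpb went down to 7 in a library. Ddit3, which encodes the stress factor CHOP, was at 4.33 ± 0.484 RPKM. The 13 members for tRNA charging and export (12 synthetases and Xpot) were within a narrower span, between 9.14 RPKM (Cars) and 62.5 RPKM (Gars). Exon length is the union of all annotated exons, so it understates genes with many long isoforms.

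**Figure D1:**
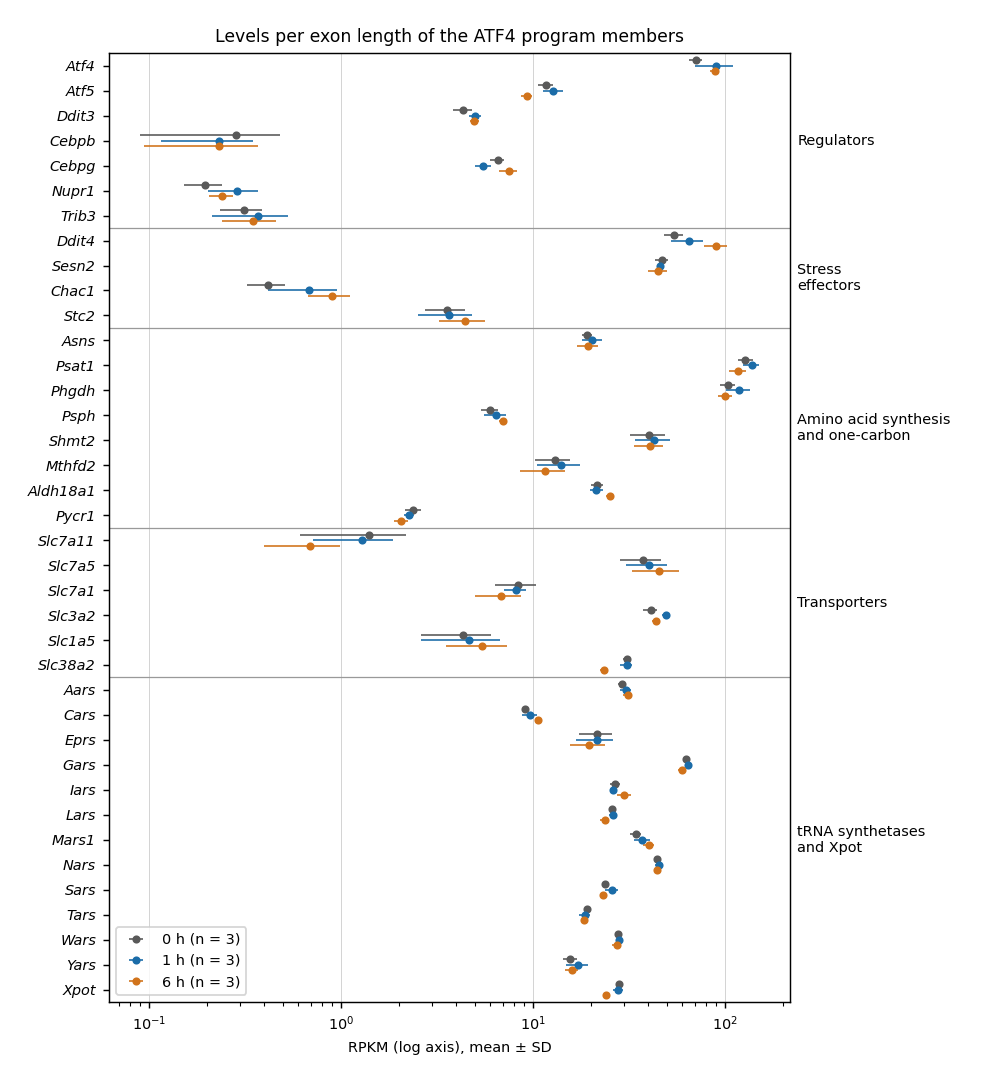
Level of each of the 38 members per exon length at 0, 1 and 6 h. Points are the mean and bars the SD of 3 libraries, in RPKM on a logarithmic axis, grouped by role. Psat1, Phgdh and Atf4 stand at the top of the range at 0 h, and Cebpb, Nupr1, Trib3 and Chac1 at the bottom.

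Time points were compared with edgeR's quasi-likelihood test, in a model of time point alone, and an adjusted p (Benjamini-Hochberg, over the 18858 genes) under 0.05 was the threshold. Same-numbered replicates of the 3 time points deviated in common, so the number was also fitted as a block, and both fits are given because they differ in nearly every call. Without the block, none of the 38 members was called at 1 h against 0 h, where 0.0424% of all tested genes were higher and 0% lower. At an unadjusted p under 0.05, 2 members were higher and 0 lower in that comparison, against 276 and 459 of all 18858 genes, and DESeq2 called 0 members, against 55 genes higher and 44 lower of the 14805 to which it gave an adjusted p. By 6 h against 0 h, 0 members were higher and 1 (2.63%) was lower, against 1.46% and 0.955% of all tested genes. Between 1 h and 6 h the counts were again 0 and 1, against 1.48% and 0.663%. The member called in both was Slc38a2.

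With the replicate block, 3 members were higher (7.89%, against 1.36% of all tested genes) and 1 was lower (2.63%, against 2.14%) at 1 h against 0 h. For 6 h against 0 h, 12 members were higher (31.6%, against 17.4%) and 9 lower (23.7%, against 17.5%). For 6 h against 1 h, 7 members were higher (18.4%, against 18%) and 11 lower (28.9%, against 17.5%). Over the 3 comparisons 24 members were called at least once, and 14 were not called in any (Ddit3, Cebpb, Nupr1, Trib3, Sesn2, Asns, Shmt2, Pycr1, Aars, Gars, Nars, Tars, Wars and Yars). The share of all tested genes called at least once was not counted, so these counts have nothing to be set against. The log2 fold changes of those 14 lay between -0.20 and 0.52 at 1 h and between -0.28 and 0.30 at 6 h against 0 h, with the widest values in the members under 1 CPM. The comparisons of 1 h and of 6 h with 0 h share their 0 h libraries, so their values are not independent of each other.

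The list as a whole had no common direction at 6 h. Without the block its median log2 fold change was 0.08 at 1 h against 0 h (26 members up and 12 down by sign), 0.01 at 6 h against 0 h (20 and 18) and -0.06 at 6 h against 1 h (13 and 25). The medians over all tested genes were 0.0012, -0.0031 and -0.0038. At 6 h the stress effectors had the highest median of the roles (0.51) and the transporters the lowest (-0.10). Leaving out 1 h replicate 3 brought the median at 1 h to 0.0106, and leaving out 0 h replicate 3 brought it to 0.14.

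**Figure D2:**
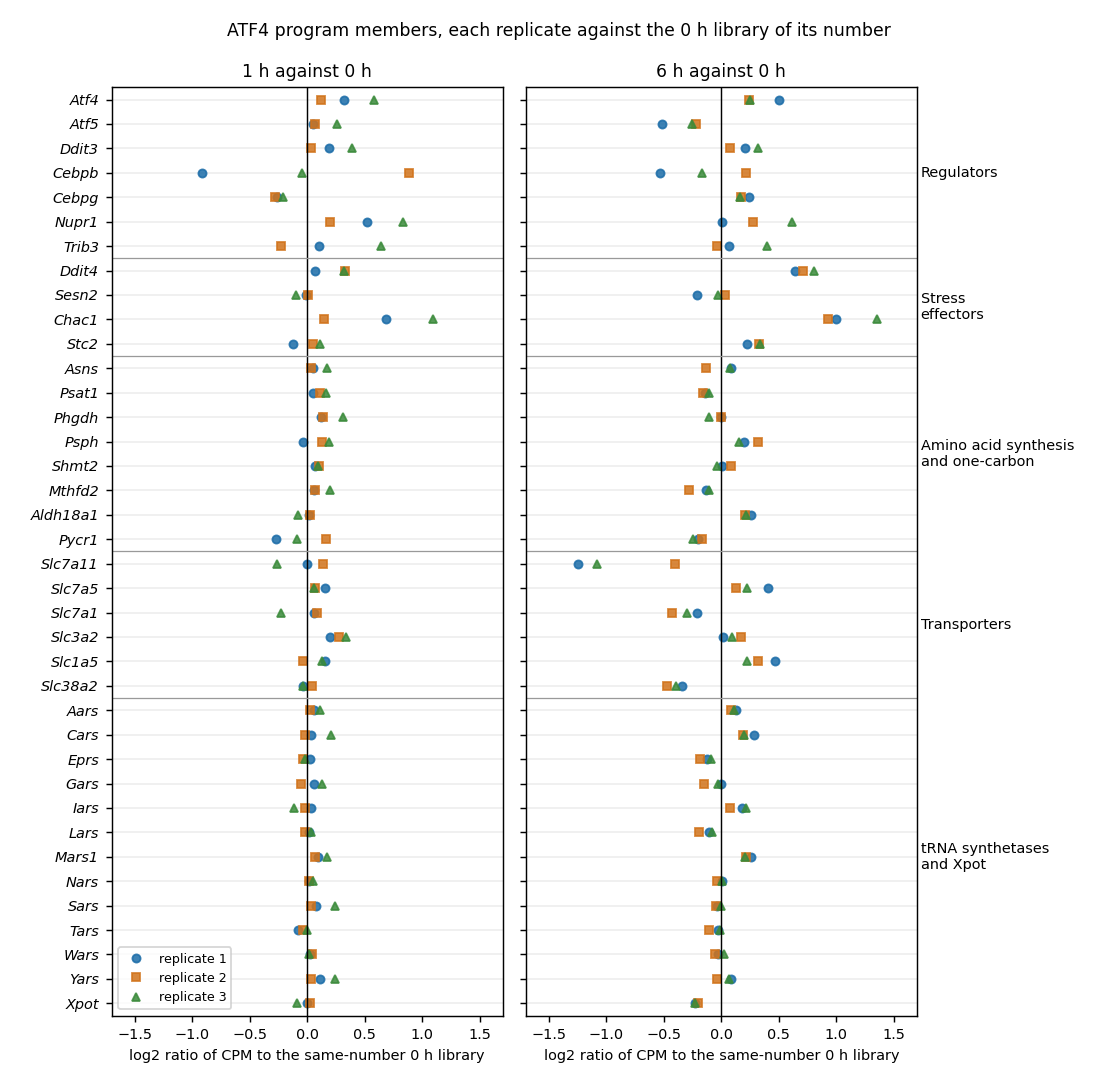
Log2 ratio of CPM of each member in each replicate at 1 h (left) and at 6 h (right) to the 0 h library with the same replicate number, with the members grouped by role. The 3 replicates of Ddit4 and Chac1 are to the right of 0 at 6 h and those of Slc7a11 and Slc38a2 to the left, while most tRNA synthetases stay close to 0.

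Among the regulators, the Atf4 transcript itself was higher at both time points. Atf4 (ENSMUSG00000042406, chromosome 15, 80255184 to 80257541) had 153.5, 165.5 and 179.3 CPM in replicates 1, 2 and 3 at 0 h, 191.4, 180.3 and 268.7 CPM at 1 h, and 217.2, 195.6 and 213.3 CPM at 6 h. The lowest 1 h and 6 h libraries were above the highest 0 h library, and replicate 3 at 1 h stood above all others. With the block, the log2 fold change of Atf4 was 0.35 at 1 h (standard error, SE, 0.09, adjusted p = 0.0434 by edgeR) and 0.33 at 6 h (SE 0.09, adjusted p = 0.00865), while without the block the adjusted p was 1 and 0.288. The 1 h call was lost when any 1 of the replicate numbers was left out (adjusted p between 0.0539 and 0.0821 by edgeR with the block), with a log2 fold change of 0.22 without replicate 3, and the 6 h call without replicate 1 (0.054). The SD of Atf4 was 12.9 CPM at 0 h, 48.2 CPM at 1 h and 11.5 CPM at 6 h.

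Cebpg, a dimerisation partner of ATF4, first fell and was then higher than at the start. Cebpg (ENSMUSG00000056216, chromosome 7, 35046422 to 35056573) had 39.6, 33.6 and 37.3 CPM at 0 h, 33.0, 27.7 and 32.2 CPM at 1 h, and 47.0, 37.7 and 41.7 CPM at 6 h. The 1 h libraries were all below those of 0 h and of 6 h, while the 0 h and 6 h ranges overlapped. With the block its log2 fold change was -0.25 at 1 h against 0 h (SE 0.05, adjusted p = 0.0196 by edgeR), 0.19 at 6 h against 0 h (adjusted p = 0.0123) and 0.44 at 6 h against 1 h (adjusted p = 4.16e-05). The last call was kept when any 1 of the replicate numbers was left out (adjusted p up to 0.00209 by edgeR with the block). The call at 1 h was lost without replicate 1 (0.174) and without replicate 2 (0.223), and that at 6 h against 0 h without replicate 1 (0.136) and without replicate 2 (0.0702).

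Atf5, an ATF4-related factor whose translation is controlled in a similar way, moved opposite to Atf4 at 6 h. Its level was 23.3 ± 1.99 CPM (SD, n = 3) at 0 h, 25.5 ± 3.09 CPM at 1 h and 18.5 ± 1.19 CPM at 6 h, and the highest 6 h library (19.9 CPM) was below the lowest at 0 h (21.2 CPM). In the fit with the block Atf5 fell by 0.33 on the log2 scale from 0 h to 6 h (SE 0.07, adjusted p = 0.00339 by edgeR) and by 0.45 from 1 h to 6 h (SE 0.07, adjusted p = 0.00036). The first of these calls was lost without replicate 1 (0.0732). Atf5 shares 82 exon bases on the opposite strand with Nup62 and with Il4i1. The remaining regulators were not called. Ddit3 had 7.42 ± 0.83 CPM at 0 h and 8.50 ± 0.433 CPM at 6 h, higher in 3 of 3 replicates, with an adjusted p of 0.0843 by edgeR with the block. On the opposite strand it shares 68 exon bases with the more abundant Mars1 and 13 with Gm4189. Trib3, a pseudokinase that restrains ATF4, had 0.663 ± 0.166 CPM at 0 h and 0.745 ± 0.236 CPM at 6 h, and Nupr1 and Cebpb also had less than 1 CPM at 0 h. Trib3 and Nupr1 hold the C/EBP-ATF core in their windows.

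Of the 4 stress effectors, 3 were higher at 6 h against 0 h with the block and 0 lower, against 17.4% and 17.5% of all tested genes, and Chac1 and Ddit4 had the largest rises of the list in that comparison. Ddit4 encodes REDD1, an inhibitor of the growth-promoting kinase mTORC1. Ddit4 (ENSMUSG00000020108, chromosome 10, 59949669 to 59951834) had 85.4, 106.1 and 94.9 CPM at 0 h, 89.4, 132.9 and 118.7 CPM at 1 h, and 133.1, 173.9 and 166.3 CPM at 6 h. The 6 h libraries were all above those of 0 h and 1 h, with replicate 1 the lowest at each time point. With the block its log2 fold change was 0.24 at 1 h (SE 0.06, adjusted p = 0.0367 by edgeR), 0.72 at 6 h against 0 h (SE 0.06, adjusted p = 1.3e-06) and 0.48 at 6 h against 1 h (adjusted p = 3.93e-05), so the level at 6 h was 1.65 times that at 0 h. Without the block the adjusted p at 6 h against 0 h was 0.0605. Both 6 h calls were kept when any 1 of the replicate numbers was left out, and the 1 h call was lost without replicate 2 (adjusted p = 0.319 by edgeR with the block) and without replicate 3 (0.101).

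Chac1, whose enzyme degrades glutathione, was scarce but had the largest relative rise. Chac1 (ENSMUSG00000027313, chromosome 2, 119351229 to 119354381) had 0.857, 0.554 and 0.644 CPM at 0 h, 1.38, 0.613 and 1.38 CPM at 1 h, and 1.71, 1.06 and 1.65 CPM at 6 h, from counts between 41 and 177 per library. Every 6 h library was above every 0 h library, and at 1 h replicate 2 was within the 0 h range. The log2 fold change at 6 h against 0 h was 1.10 with the block (SE 0.19, adjusted p = 0.000652 by edgeR), a 2.14-fold level, and the adjusted p was 0.152 without the block. It was kept when any 1 of the replicate numbers was left out (up to 0.00697). At 1 h Chac1 had a log2 fold change of 0.67 (adjusted p = 0.0929 by edgeR with the block), higher in 3 of 3 replicates. The core in its promoter window is the first sequence printed above.

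Stc2, which encodes the secreted glycoprotein stanniocalcin 2, was at 18.6 ± 4.38 CPM (SD, n = 3) before induction and rose by 6 h to 23.0 ± 6.17 CPM. Its log2 fold change was 0.30 (with the block, SE 0.06, adjusted p = 0.00264 by edgeR, and 0.659 without the block). Its spread between replicate numbers was wider than the change, with 23.4 CPM in replicate 3 and 14.8 CPM in replicate 1 at 0 h, and each replicate was higher at 6 h than at 0 h. Against 1 h the log2 fold change of Stc2 at 6 h was 0.28 (SE 0.06, adjusted p = 0.00372 by edgeR with the block, and 0.698 without the block). Sesn2, a leucine sensor that also inhibits mTORC1, was abundant and was not called, with 163 ± 12 CPM at 0 h and 156 ± 17.8 CPM at 6 h.

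**Figure D3:**
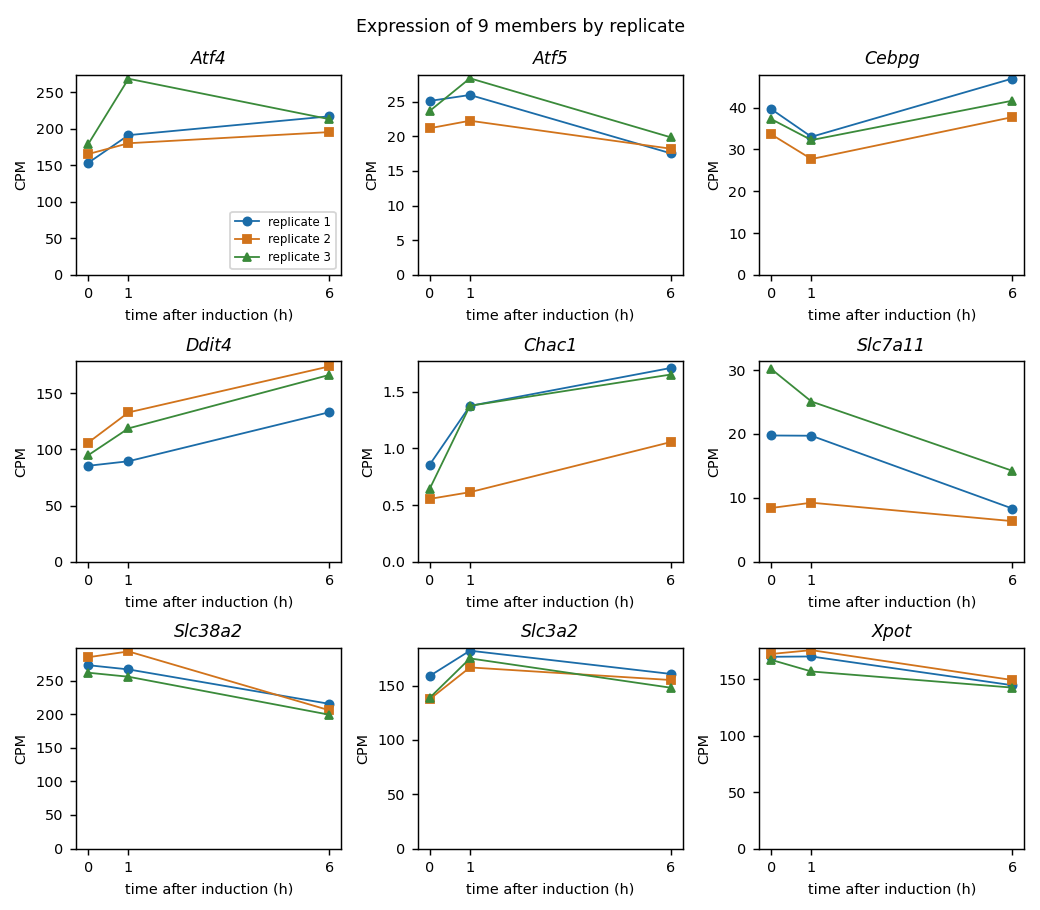
CPM of 9 members at 0, 1 and 6 h, 1 line per replicate number, with every axis starting at 0. Ddit4 and Chac1 go up and Slc7a11 and Slc38a2 go down by 6 h in the 3 replicates, Cebpg dips at 1 h and Slc3a2 peaks at 1 h.

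Of the 8 genes for amino acid synthesis and one-carbon metabolism, 2 were higher and 2 lower at 6 h against 0 h with the block, near the shares of all tested genes (17.4% and 17.5%). In serine synthesis, Psat1 had 545 ± 48.5 CPM (SD, n = 3) at 0 h, 588 ± 56.7 CPM at 1 h and 496 ± 50.1 CPM at 6 h, and Psph, the phosphatase of the last step, had 26.0 ± 2.62, 27.8 ± 3.71 and 30.3 ± 1.33 CPM. With the block Psat1 fell by 0.14 on the log2 scale from 0 h to 6 h (SE 0.05, adjusted p = 0.0378 by edgeR) and by 0.25 from 1 h to 6 h (adjusted p = 0.00137). Psph rose by 0.22 from 0 h to 6 h (SE 0.07, adjusted p = 0.0165), but it shares 452 exon bases with Cct6a on the opposite strand. Phgdh, the first enzyme of the pathway, had 257 ± 23.7, 295 ± 41.0 and 250 ± 21.3 CPM. It was lower at 6 h than at 1 h (-0.23, adjusted p = 0.00815 by edgeR with the block), with a log2 fold change of -0.04 against 0 h. The call of Psat1 against 0 h was lost without replicate 1 (0.262) and without replicate 2 (0.279), and that of Psph without replicate 2 (0.162), while the calls of Psat1 and Phgdh against 1 h were kept whichever replicate number was left out. The value of Phgdh against 1 h was -0.13 without replicate 3 (adjusted p = 0.019 by edgeR with the block).

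Mthfd2, a mitochondrial enzyme of folate metabolism, had 45.3 ± 9.49 CPM (SD, n = 3) before induction, 49.1 ± 12.2 CPM at 1 h and 40.5 ± 10.7 CPM at 6 h, and was lower at 6 h in each replicate. Its log2 fold change with the block was -0.18 against 0 h (SE 0.06, adjusted p = 0.0241 by edgeR) and -0.28 against 1 h (adjusted p = 0.00148). Only the call against 0 h was lost with a replicate number left out, without replicate 1 (0.103) or without replicate 2 (0.314, with a log2 fold change of -0.11). In proline synthesis, Aldh18a1, the first enzyme, rose from 88.1 ± 5.9 to 103 ± 5.26 CPM by 6 h, with ranges that did not overlap. Its log2 fold change was 0.23 (SE 0.05, adjusted p = 0.00233 by edgeR with the block), and this call was kept without any 1 of the replicate numbers. Against 1 h the log2 fold change of Aldh18a1 at 6 h was 0.24 (SE 0.05, adjusted p = 0.00174 by edgeR with the block, and 0.189 without the block). Pycr1, the last enzyme of the same pathway, had 9.38 ± 0.858 CPM at 0 h and 8.12 ± 0.675 CPM at 6 h and was not called (adjusted p = 0.0902). Asns, the asparagine synthetase and a textbook ATF4 target with the core printed above, had 52.6 ± 3.27, 56.0 ± 6.42 and 53.2 ± 6.76 CPM at the 3 time points. Its log2 fold change at 6 h against 0 h was 0.01 with an SE of 0.06 (adjusted p = 0.921 by edgeR with the block). The mitochondrial serine enzyme Shmt2 was not called either, with 126 ± 26.5 CPM at 0 h and 127 ± 22 CPM at 6 h.

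The transporters held the largest fall of the list and the member called without the block. Slc7a11 encodes xCT, the light chain of the exchanger that takes up cystine for glutathione synthesis. Slc7a11 (ENSMUSG00000027737, chromosome 3, 49892526 to 50443614) had 19.8, 8.41 and 30.2 CPM in replicates 1, 2 and 3 at 0 h, 19.7, 9.23 and 25.1 CPM at 1 h, and 8.32, 6.35 and 14.2 CPM at 6 h. The ranges at 0 h and 6 h overlapped, because replicate 2 was low at all 3 time points, and each replicate was lower at 6 h than at 0 h. With the block its log2 fold change was -0.93 at 6 h against 0 h (SE 0.13, adjusted p = 0.000109 by edgeR), a level 0.525 times that at 0 h, and -0.87 against 1 h (adjusted p = 0.00019). Without the block the adjusted p was 0.371 and the SE 0.52. At 1 h its log2 fold change was -0.06 (adjusted p = 0.836). The 6 h calls were kept with the block when any 1 of the replicate numbers was left out, with log2 fold changes against 0 h between -1.15 and -0.77. Slc7a11 has 2 cores and serves glutathione synthesis, and it was lower at 6 h with the block. Chac1 has 1 core and serves glutathione breakdown, and it was higher.

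Slc38a2 encodes SNAT2, a sodium-coupled carrier of neutral amino acids such as glutamine. Slc38a2 (ENSMUSG00000022462, chromosome 15, 96687392 to 96699730) had 273.1, 285.0 and 261.9 CPM at 0 h, 266.8, 293.6 and 255.9 CPM at 1 h, and 215.5, 205.9 and 199.3 CPM at 6 h. All 6 h libraries were below all libraries of 0 h and 1 h, and the ranges of 0 h and 1 h overlapped. Its log2 fold change at 6 h against 0 h was -0.40, with an adjusted p of 0.0374 by edgeR without the block (SE 0.08) and of 5.39e-05 with it (SE 0.05), and a level 0.757 times that at 0 h. Against 1 h the value was -0.39, with adjusted p-values of 0.0406 and 6.74e-05. Without the block the call against 0 h held in 2 of the 9 fits with a library removed, those without 1 h replicate 2 and without 1 h replicate 3, and the adjusted p in the other 7 was between 0.0719 (without 1 h replicate 1) and 0.137 (without 0 h replicate 1). The call against 1 h held in 0 of these 9, with values between 0.0585 and 0.144. With the block both calls were kept without any 1 of the replicate numbers, with adjusted p up to 0.0065.

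Slc3a2 and Slc7a5 encode the subunits of an exchanger for large neutral amino acids. Slc3a2, the heavy chain shared with xCT, had 145 ± 12 CPM (SD, n = 3) at 0 h, 175 ± 7.71 CPM at 1 h and 155 ± 6.41 CPM at 6 h, and the lowest 1 h library (166.7 CPM) was above the highest at 0 h (158.9 CPM). With the block it rose by 0.27 at 1 h (SE 0.05, adjusted p = 0.00932 by edgeR), and fell by 0.17 from 1 h to 6 h (adjusted p = 0.0144). The 1 h call was lost without replicate 2 (0.134), and the fall was lost without replicate 1 (0.101) and without replicate 2 (0.0631). Slc7a5, the light chain LAT1, had 140 ± 33.7, 149 ± 35.7 and 168 ± 46.5 CPM and rose by 0.25 at 6 h against 0 h (SE 0.06, adjusted p = 0.00316 by edgeR with the block, and 0.697 without it). Slc1a5, the glutamine carrier ASCT2, rose from 18.2 ± 7.28 CPM to 22.7 ± 7.95 CPM at 6 h, a log2 fold change of 0.34 (SE 0.07, adjusted p = 0.00212 by edgeR with the block). Slc7a1, the cationic amino acid carrier CAT1, fell from 97.1 ± 23.4 CPM to 78.8 ± 21.4 CPM, a log2 fold change of -0.31 (SE 0.07, adjusted p = 0.00453). The ranges of these last 3 transporters at 0 h and 6 h overlapped, and each replicate moved in the direction named. The call of Slc7a5 was lost without replicate 1 (adjusted p = 0.0847 by edgeR with the block) and that of Slc7a1 without replicate 2 (0.0577), while that of Slc1a5 was kept without any 1 of the numbers. All 3 were called in the same direction at 6 h against 1 h, where Slc7a5 lost the call without any 1 of the numbers (up to 0.312), Slc1a5 without replicate 1 (0.0863) or replicate 2 (0.11), and Slc7a1 without replicate 2 (0.179, with a value of -0.16).

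The tRNA synthetases and Xpot differed by at most 0.22 on the log2 scale between 0 h and 6 h. Of these 13, 3 were higher, 3 lower and 7 not called in that comparison with the block, near the shares of all tested genes (17.4% and 17.5%). At 1 h 0 of them were called, against 1.36% of all tested genes higher and 2.14% lower. At an unadjusted p under 0.05 with the block, 3 were higher and 0 lower at 1 h, against 1562 and 1876 of all 18858 tested genes. Cars, the cysteinyl-tRNA synthetase, rose from 60.2 ± 0.358 to 70.3 ± 2.35 CPM (SD, n = 3 each, log2 fold change 0.22, SE 0.06, adjusted p = 0.00884 by edgeR with the block). Mars1, for methionine, rose from 118 ± 7.43 to 138 ± 8.88 CPM (0.22, SE 0.05, adjusted p = 0.0023 by edgeR with the block), and Iars, for isoleucine, from 141 ± 8.48 to 158 ± 13.5 CPM (0.16, SE 0.05, adjusted p = 0.0341). The 0 h and 6 h ranges did not overlap for Cars and Mars1 and overlapped for Iars. Cars shares 211 exon bases with the pseudogene Gm15580 on the opposite strand, and Mars1 shares 68 with Ddit3. The call of Mars1 was kept without any 1 of the replicate numbers, that of Cars was lost without replicate 1 (adjusted p = 0.0783 by edgeR with the block), and that of Iars without replicate 1 (0.172) or replicate 2 (0.0743).

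Xpot encodes the exportin that carries tRNAs out of the nucleus. It had 170 ± 2.61 CPM (SD, n = 3) before induction and fell to 146 ± 3.41 CPM by 6 h, with ranges apart, and had 168 ± 9.69 CPM at 1 h. The log2 fold change of Xpot was -0.22 (SE 0.05, adjusted p = 0.00231 by edgeR with the block, and 0.116 without it), and this call was kept without any 1 of the replicate numbers. Eprs, for glutamate and proline, had 390 ± 76.8 CPM at 0 h and 357 ± 74.4 CPM at 6 h, and Lars, for leucine, 139 ± 2.77 and 127 ± 7.4 CPM. Both were called lower with the block at 6 h against 0 h, with -0.13 each (SE 0.05 each, adjusted p = 0.0393 and 0.044 by edgeR), and both lost the call once the dependence of counts on GC content and length had been taken out per library (adjusted p = 0.247 and 0.0618 by edgeR with the block). Without replicate 1 or replicate 2 neither was called, with adjusted p-values of up to 0.369 for Eprs and 0.418 for Lars. Sars, for serine, was lower at 6 h than at 1 h (-0.15, adjusted p = 0.0377 by edgeR with the block). Between 1 h and 6 h Iars was higher and Lars and Xpot lower. These 4 calls against 1 h were lost without replicate 1 (0.0535 to 0.172), and those of Sars, Lars and Xpot also without replicate 2 (0.094 to 0.277), while that of Sars was lost without replicate 3 too (0.0896, with a value of -0.10). The value of Iars against 1 h was 0.12 without replicate 3 (adjusted p = 0.0475). Aars, Gars, Nars, Tars, Wars and Yars were not called in any comparison, and 4 of these 6 (Aars, Gars, Tars and Yars) hold the C/EBP-ATF core. Aars shares 1326 exon bases with Exosc6 on the same strand, and the counts do not show how reads in them were assigned.

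**Figure D4:**
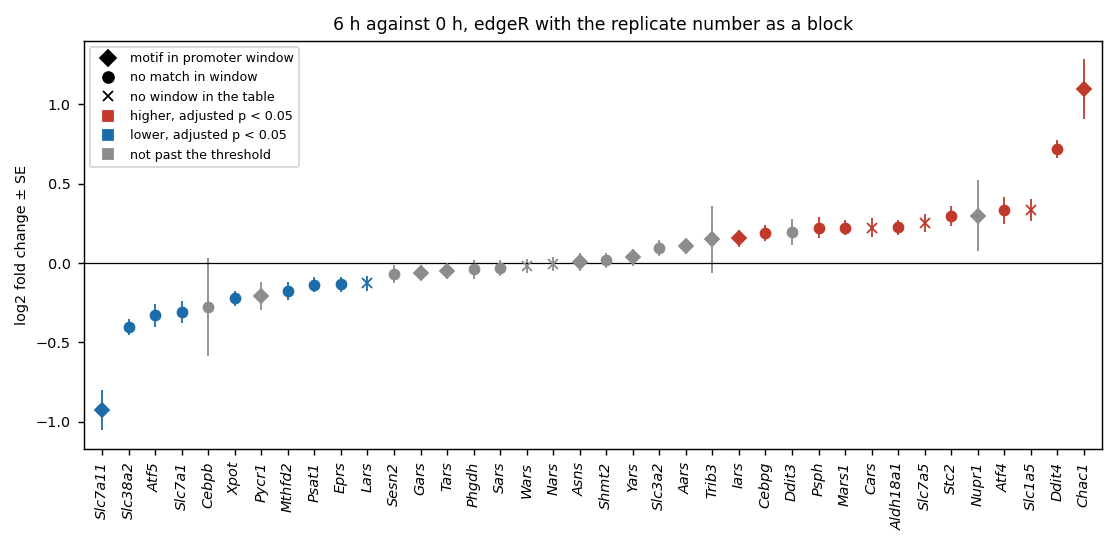
Log2 fold change of the 38 members at 6 h against 0 h in the edgeR fit with the replicate block, sorted, with bars of 1 standard error. Colours mark an adjusted p under 0.05 and shapes mark whether the promoter window holds the C/EBP-ATF core. Members with the core (diamonds) are found at both ends and in the middle of the order.

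Set against these calls, the core was in 2 of 9 members with a window that were higher at 6 h against 0 h with the block (22.2%), in 1 of 8 that were lower (12.5%) and in 8 of 15 that were not called (53.3%). The 2 higher members were Chac1 and Iars, and the lower one was Slc7a11. Atf4 and Ddit4 rose with no match of these letters in their windows.

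Other genes around the programme were counted by lists chosen by name, and their counts with the block stand against 17.4% of all tested genes higher and 17.5% lower at 6 h against 0 h, and 1.36% and 2.14% at 1 h. A count of 3 of 14 or of 3 of 16 is near these 6 h shares. Of 14 genes for eIF2alpha, its kinases, exchange factors and phosphatase, 3 were higher and 3 lower at 6 h against 0 h with the block (median log2 fold change -0.08). Eif2s1, which encodes eIF2alpha itself, fell from 162 ± 10.8 to 122 ± 13.7 CPM (SD, n = 3 each; -0.41, adjusted p = 3.04e-05 by edgeR with the block). Eif2ak4, the kinase GCN2 that senses uncharged tRNA, rose by 0.34 (adjusted p = 0.000279), and Ppp1r15a, the ATF4-induced phosphatase subunit GADD34, fell by 0.31 (adjusted p = 0.00762). Of 17 further ATF4 targets tested (18 listed), 5 were higher and 1 lower at 6 h (median 0.09), with Slc7a3 (0.87), Got1 (0.57) and Slc38a7 (0.40) the largest of those called, and at 1 h 2 were higher. These were the stress factor Atf3 and Gdf15. Atf3 went from 1.22 ± 0.149 to 3.44 ± 0.59 CPM (1.48, adjusted p = 0.000121 by edgeR with the block) and was back to 1.51 ± 0.0918 CPM at 6 h. Gdf15 went from 11.2 ± 9.39 to 17.4 ± 14.4 CPM (0.63, adjusted p = 0.00275 by edgeR with the block). It was higher in 3 of 3 replicates but ranged from 1.42 CPM (replicate 2) to 20.1 CPM (replicate 3) at 0 h. Neither gene was called at 1 h without the block. At 1 h Eif2ak2, the kinase PKR, was lower (-0.34, adjusted p = 0.0113 by edgeR with the block).

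In the ER branch of the unfolded protein response, 11 of 16 genes were higher and 0 lower at 6 h against 0 h with the block (median 0.23), among them Xbp1 (0.98), Creld2 (0.47) and the chaperone Hspa5 (0.43). Without the block 2 of these 16 were higher, and Xbp1 was past the threshold in that fit too (adjusted p = 0.00988 by edgeR). Of 8 cytosolic tRNA synthetases outside the 38 members, 0 were higher and 3 lower (median -0.12), namely Farsb (-0.45), Dars (-0.39) and Kars (-0.24). Of 16 mitochondrial synthetases 3 were higher and 2 lower (median 0.01), with Mars2 (0.33), Vars2 (0.28) and Wars2 (-0.24) the largest of those called. In the other serine and one-carbon genes 1 of 11 was higher and 5 lower (median -0.12). The lower genes included Shmt1 (-0.65), the cytosolic counterpart of Shmt2, and the thymidylate synthase Tyms (-0.53). Of 15 genes of amino acid sensing by mTORC1, 6 were higher and 0 lower (median 0.04), with the leucine sensor relative Sesn1 (0.77), Castor2 (0.72) and Tfeb (0.59) the largest of those called. With the block, the genes named here for each list had an adjusted p under 0.05 by edgeR over all tested genes.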

How the data were processed

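The authors deposited raw counts of reads per Ensembl gene. Per the labels and the study's methods, mRNA libraries were sequenced as paired-end reads and aligned to mm10 (GRCm38) and counted with STAR 2.5.3a, with quality checked by FastQC. The authors' own tests used DESeq2 1.22.1. The strand setting of the counting is not given in the sources used here, so genes that share exons cannot be separated. Symbols, positions and exon lengths came from GENCODE M21, and promoter windows from RefSeq.

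The counts were analysed with edgeR 4.0.16 in R 4.3.3 (filterByExpr with minimum count 10 and minimum total count 15, TMM, glmQLFit and glmQLFTest), with all 9 libraries in 1 fit. CPM used TMM-scaled totals. Standard errors came from the F statistic. TMM factors lay between 0.9718 and 1.017. No library was a copy of another (lowest chi-square per degree of freedom 10.7). The labels give replicate numbers but not what libraries with the same number share, so p-values measure only the spread between these samples. After removal of time point means, correlations were between 0.733 and 0.800 in 9 same-number pairs, so the numbers pair the samples. They were between -0.462 and -0.314 in 18 others. Removing the mean of 3 libraries makes these negative once same-number pairs correlate, so they add no further evidence of pairing. The biological coefficient of variation shared by all genes was 27.7% without and 6.27% with the block.

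The members, comparison lists and tests were chosen with earlier results of these data known. All members are accounted for. Library values are printed for members called in both fits, or changed by 0.5 or more on the log2 scale in a fit that calls them, and also for Atf4 and Cebpg, chosen after their values were seen. Up to 3 called genes of each comparison list are named for 1 h and 6 h against 0 h. The result of 1 gene that this rule would name is not reported here. Alternatives were DESeq2 1.42.0, other scalings and filters, pairs of time points fitted alone, GC and length trends removed, and libraries left out. An adjusted p under 0.01 with the block was chosen after seeing the data.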

Additional observations from a re-analysis of the deposited data

How the results depend on the processing

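The replicate block decided most calls. At 1 h against 0 h, 0 members were higher and 0 lower without it, 3 and 1 with it, 4 and 1 in DESeq2 with it, 2 and 0 with GC and length trends removed and the block, and 1 and 0 at an adjusted p under 0.01 with the block. The counts were between 0 and 2 and between 0 and 1 with the block and a replicate number left out. At 6 h against 0 h, 0 were higher and 1 lower in the reported fit, 12 and 9 with the block, 2 and 2 in DESeq2, 12 and 9 in DESeq2 with the block, 13 and 10 with trends removed and the block, 0 and 2 with trends removed alone, 9 and 5 at 0.01 with the block, and between 7 and 13 and between 4 and 9 with the block and a number left out. At 6 h against 1 h the pairs were 0 and 1, 7 and 11 (block), 1 and 3 (DESeq2), 7 and 12 (DESeq2 with the block), 6 and 14 (trends removed with the block), 0 and 2 (trends removed), 4 and 8 (0.01 with the block), and between 4 and 9 and between 6 and 11 with a number left out. Over all genes, DESeq2 called 929 higher and 813 lower of 17357 at 6 h against 0 h and 932 and 763 of 15899 against 1 h. With the block it called 368 and 561 of 13008 at 1 h, 3006 and 3120 of 18126 at 6 h against 0 h and 3020 and 3265 of 17395 against 1 h. With trends removed the counts of 18779 genes were 282 and 178, and 276 and 196 against 1 h, and with the block as well 352 and 372 at 1 h, 3537 and 3507, and 3512 and 3912. For an adjusted p under 0.01 and for fits with a replicate number left out, calls over all genes were not counted. The member counts in those settings therefore have no share beside them. In both 6 h comparisons the lower count without the block was 0 with library totals, without a filter, with only the 6 libraries compared and at 0.01. Leaving out a library gave 0 or 1 against 0 h and 0 against 1 h. All 21 members called with the block at 6 h against 0 h were also called by DESeq2 with the block, and 19 with trends removed. Of the 4 called at 1 h, 4 and 2 were, and Cebpg and Ddit4 were lost with trends removed (adjusted p = 0.0576 and 0.0685 by edgeR). Of the 18 at 6 h against 1 h, 18 and 17 were, with Slc7a5 lost (0.285).

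The median log2 fold change of the members lay between 0.0106 and 0.14 at 1 h when a library was left out. At 6 h against 0 h it lay between -0.0354 and 0.11, with 0.0338 for library totals and 0.0413 with the block and without replicate 2. Against 1 h it lay between -0.12 and 0.0156, with -0.0229 for library totals, -0.10 with trends removed and -0.0974 with trends removed and the block. The sign turned, in fits without the block, for Mthfd2 against 0 h without 6 h replicate 2 (between -0.3231 and 0.0443 over all libraries left out), Eprs against 0 h without 0 h replicate 1 (-0.3078 to 0.0422) and Slc1a5 against 1 h without 1 h replicate 2 (-0.0466) or 6 h replicate 3 (-0.0468 to 0.5954). The cause of these shifts was not tested. Other scalings moved the median of all genes to at most 0.031. Depth limits Cebpb, Nupr1, Trib3 and Chac1, with counts of 7 to 177 per library.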
